A study of Homo sapiens with 6 samples.

Results

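The BCL2 family, the caspases, the death receptors and the factors that connect them are described here as 38 genes listed by symbol. Of these, 37 were found by gene symbol among the 17579 genes of the expression table, and CASP4 was not analysed here. All 6 libraries came from the human myeloma line LP-1, infected with a virus carrying a single guide RNA and grown with fetal bovine serum. The control group (3 libraries, written C1, C2 and C3) received a guide without a target, although the sample titles call it Vector, and the AURKA-guide group (3 libraries, A1, A2 and A3) received a guide that targets AURKA, which encodes the mitotic kinase Aurora A. The labels name the second group a knockout and do not say whether the cells were a clone or a pool, when they were harvested, or whether replicates were separate cultures. The p-values therefore describe the spread among these 6 libraries alone, and that spread may be technical.

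Apoptosis runs by 2 routes. In the extrinsic route, ligands cluster death receptors, whose adaptor FADD recruits the initiator caspases CASP8 and CASP10, with CFLAR as their brake. In the intrinsic route, BH3-only proteins neutralise the anti-apoptotic BCL2 proteins or activate BAX and BAK1, which open the outer mitochondrial membrane; cytochrome c (CYCS) then joins APAF1 to activate CASP9 and, through it, the executioner caspases. Plasma cells and multiple myeloma are known for their dependence on MCL1, and a share of myelomas depends instead on BCL2 or BCL2L1.

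AURKA (gene ID 6790) was at 189, 192 and 195 CPM (the count scaled to library size) in C1, C2 and C3 and at 113, 119 and 113 CPM in A1, A2 and A3. It fell by 0.74 in log2 units (edgeR's quasi-likelihood test, SE 0.049, adjusted p = 1.55e-06), so its RNA was still present in the libraries labelled as knockout. In bulk RNA, fewer cells carrying a transcript and less of it per cell cannot be told apart. The libraries held 17724174 to 18523594 expected counts each. The labels call the cells B lymphoblasts. Of their markers, the 8 of plasma cells summed to 7882 to 8814 CPM in control and 8113 to 8344 CPM in AURKA-guide libraries, while the B cell genes MS4A1 and PAX5 averaged 0 and 0.00890 CPM. JCHAIN, at 5332 CPM, and XBP1, at 1468 CPM, made up most of the plasma cell sum, and the plasma cell marker SLAMF7 was nearly absent at 0.733 CPM. CD38 rose from 210.3 ± 5.996 CPM in control to 274 ± 1.13 CPM in AURKA-guide libraries (SD, n = 3; log2 0.38, SE 0.046, edgeR adjusted p = 0.000416), and whether it moved with the members was not tested. Markers of T and NK, myeloid, erythroid, epithelial and stromal cells each summed to at most 6.12 CPM, with ACTA2 their highest gene at 5.03 CPM. One control library stood apart in the fits: leaving out C3 raised the genes called at an adjusted p under 0.05 from 267 of 13138 to 2034 of 13283. The largest difference between replicates was also that of C2 and C3, with a chi-square per gene of 10.5 against 2.24 to 5.22 in the other pairs of 1 group.

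Among the 33 members with enough counts to be tested, 1 rose (FAS), none fell and 32 did not pass the test. Over all 13138 genes tested, 2.03% were called, 0.959% higher and 1.07% lower. Unadjusted p-values under 0.05 were found for 8 members (5 higher, 3 lower), which is 8 of 33 beside a background of 16.1% of all genes. The 3 values of each group did not overlap for 10 members (7 higher, 3 lower), beside 20.8% of all genes. The median difference over the tested members was 0.04 on the log2 scale, where the median over all genes was -0.00009. Of the 33 members 28 differed by less than 0.25, beside 86.8% of all genes. For 22 members the whole 95% interval of the difference lay within 1.25-fold in either direction. No call was made for BCL2L2, BCL2A1, BOK and BCL2L11, which had too few counts.

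**Figure D1:**
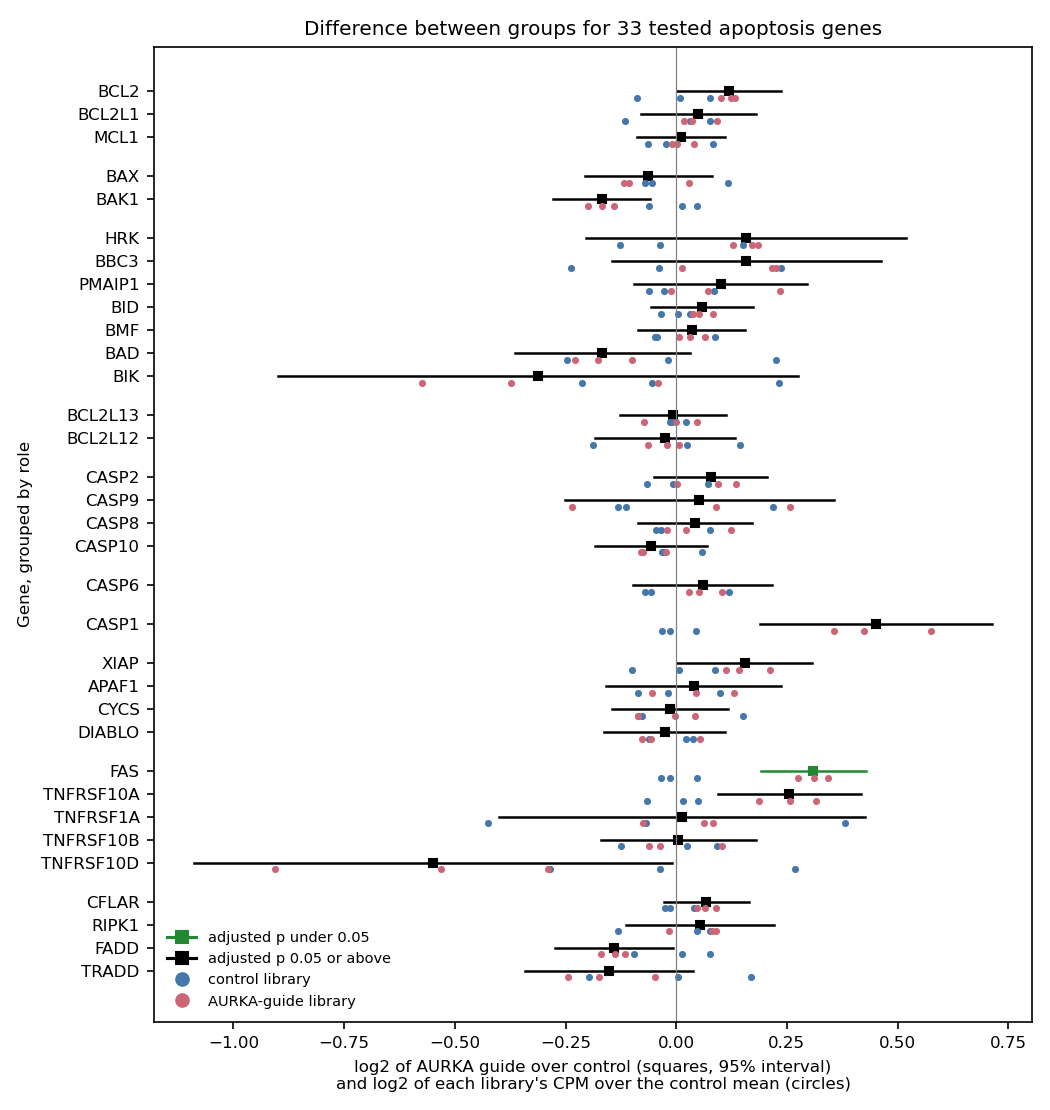
Difference between AURKA-guide and control libraries for the 33 tested genes, grouped by role (vertical axis). Squares are the log2 fold change with its 95% interval, and circles are each library's log2 CPM relative to the control mean. FAS alone passes the adjusted threshold, at 0.31, and 28 of 33 squares lie within 0.25 of 0, beside 86.8% of all genes tested.

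The levels of the members spanned a wide range when compared per length, as FPKM (the authors' fragment count scaled to transcript length and library size). MCL1, the anti-apoptotic protein that plasma cells rely on, was the highest member at 231 ± 18.1 FPKM in control libraries (SD, n = 3). CYCS followed at 87.6 ± 8.98 FPKM, then BAX at 68.7 ± 4.67 FPKM, and these first 3 levels did not overlap between neighbours. BAD and BAK1 came next at 55.0 ± 8.73 and 54.9 ± 1.68 FPKM (SD, n = 3) and overlapped. CFLAR, BCL2L12, CASP8, BID, BCL2L1, FADD, FAS and TRADD lay between 42.3 and 20.05 FPKM on average. Of the 7 neighbouring pairs in that run, BCL2L12 with CASP8 and FADD with FAS did not overlap. DIABLO, BCL2 and BCL2L13 averaged 18.9, 18.8 and 18.3 FPKM and overlapped in turn. BMF, CASP2 and CASP6 ran from 17.1 to 14.9 FPKM and also overlapped in turn.

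The lower part of the order held the other receptors and several activators. TNFRSF10A, CASP10, PMAIP1, RIPK1 and TNFRSF10B averaged 9.63 to 4.67 FPKM. CASP9, CASP1, XIAP and BBC3 averaged 3.13 to 2.71 FPKM without separation between neighbours. APAF1, TNFRSF1A and BIK averaged 1.78 to 1.13 FPKM, and TNFRSF10D and HRK 0.46 and 0.42 FPKM. At the bottom, BCL2L2, BOK, BCL2A1 and BCL2L11 averaged 0.12, 0.063, 0.023 and 0.02 FPKM. BCL2L11 encodes BIM, an activator of BAX and BAK1, and its expected counts were 1, 3 and 1.62 in the control libraries and 1.03, 8.16 and 0 in the AURKA-guide libraries. A difference in it was not detectable at these counts, where 3 counts correspond to 0.162 to 0.169 CPM. The only transcript model listed for BCL2L11 was NM_138625.3. Whether its low level reflects expression or the models that were counted was not tested. BCL2L2 likewise had a single listed model, and BOK had predicted models alone. BCL2L2 also shares sequence with the readthrough gene BCL2L2-PABPN1, counted at 0 to 1.202 CPM, so how reads were divided between them is uncertain.

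**Figure D2:**
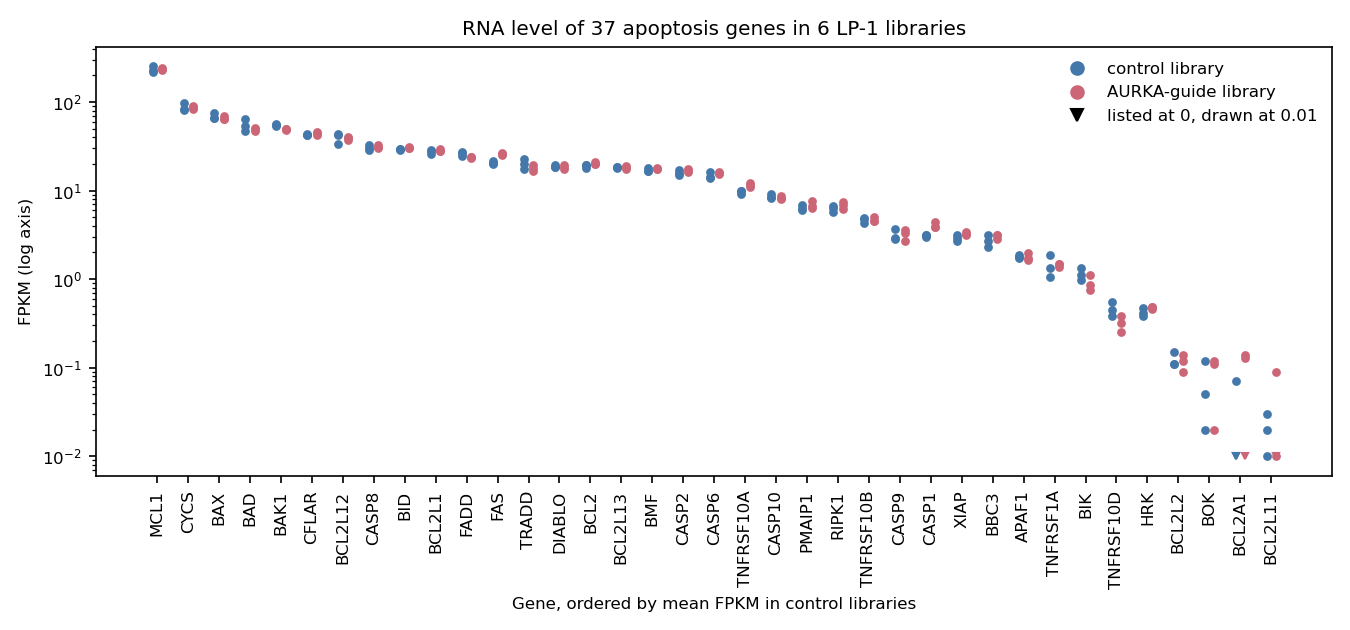
Level of the 37 members in each of the 6 libraries (log axis, FPKM), ordered by the mean of the control libraries. MCL1 lies highest, at 216 to 251 FPKM over the 6 libraries, and BCL2L2, BOK, BCL2A1 and BCL2L11 lie at 0.15 FPKM or below in all of them.

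FAS, the receptor for Fas ligand, was the member that passed the test. FAS (gene ID 355) was at 56.3, 55.5 and 58.7 CPM in the control libraries and at 70.6, 68.8 and 72.1 CPM in the AURKA-guide libraries. All 3 AURKA-guide values lay above all 3 control values, and neither group had a library far from its others. The rise was 1.24-fold, or 0.31 on the log2 scale (SE 0.055, 95% interval 0.19 to 0.43, adjusted p = 0.00735, edgeR's quasi-likelihood test). Without C1 the adjusted p was 0.0683 and without A3 it was 0.0775, with differences of 0.30 and 0.29, so the call was lost in those fits. They called 0 members, beside 0.836% and 0.738% of all genes. FAS has an antisense neighbour, FAS-AS1, and whether the counting used strand is not given in the sources used here.

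TNFRSF10A, a receptor for the ligand TRAIL, was at 16.1, 17.4 and 17.04 CPM in the control and at 20.98, 19.2 and 20.15 CPM in the AURKA-guide libraries. The groups did not overlap, yet the gene did not pass the test (log2 difference 0.26, SE 0.076, 95% interval 0.094 to 0.42, edgeR adjusted p = 0.115). TNFRSF10B, the second signalling TRAIL receptor, had overlapping groups between 17.9 and 20.97 CPM (log2 difference 0.0046, 95% interval -0.17 to 0.18). TNFRSF10D, a decoy TRAIL receptor that binds without a full death domain, was at 1.61, 1.99 and 1.36 CPM in control and at 0.884, 1.15 and 1.36 CPM in AURKA-guide libraries. C3 and A3 were nearly equal there, and the log2 difference of -0.55 (SE 0.25) had an edgeR adjusted p of 0.300. TNFRSF1A, a TNF receptor, overlapped at 2.48 to 4.33 CPM, and its interval of -0.40 to 0.43 was wide. TNFRSF1B, another TNF receptor and not among the members, averaged 51.5 CPM and overlapped too. The TRAIL receptors are similar in sequence, and how reads were divided among them is uncertain.

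None of the 4 adaptors and regulators of the receptors passed the test. FADD was at 49.0, 51.2 and 45.5 CPM in the control and at 44.8, 44.1 and 43.2 CPM in the AURKA-guide libraries. The AURKA-guide values were all lower by a narrow margin, with C3 the nearest control value (log2 difference -0.14, SE 0.063, edgeR adjusted p = 0.285). TRADD, the adaptor of the TNF receptor, was at 31.4, 35.1 and 27.3 CPM and at 30.2, 27.7 and 26.4 CPM. Its groups overlapped, C2 being highest (log2 difference -0.15, SE 0.088, edgeR adjusted p = 0.418). CFLAR, which blocks CASP8 at the receptor, was at 252 to 263 CPM in control and 265 to 273 CPM in AURKA-guide libraries (log2 difference 0.07, edgeR adjusted p = 0.482). RIPK1, the kinase that steers TNF receptor signalling towards survival or death, overlapped between 18.2 and 21.2 CPM.

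The anti-apoptotic relatives bind and hold the BH3-only proteins, BAX and BAK1. Of the 3 that could be tested, none passed. BCL2 was at 91.4, 85.5 and 95.8 CPM in the control and at 97.4, 99.0 and 99.7 CPM in the AURKA-guide libraries. The AURKA-guide values lay within a narrow range just above C3 (log2 difference 0.12, SE 0.055, 95% interval 0.0015 to 0.24, edgeR adjusted p = 0.302). BCL2L1, which encodes BCL-xL, was at 71.7, 74.0 and 64.8 CPM and at 71.9, 71.1 and 74.9 CPM. C3 was the low value of that gene and the other 5 libraries overlapped (log2 difference 0.05, SE 0.061, edgeR adjusted p = 0.723). MCL1 ranged from 886 to 980.4 CPM in control and from 919.6 to 953 CPM in AURKA-guide libraries, with a log2 difference of 0.011 and an interval from -0.088 to 0.11. Within the summed FPKM of the 5 anti-apoptotic members, MCL1 held 82.3% to 84.8% in control and 82.5% to 83.0% in AURKA-guide libraries. BCL2L1 held 8.67% to 10.9% and BCL2 6.49% to 7.30% over all 6 libraries. These are shares of whole genes, and they include the shorter MCL1 and BCL2L1 forms described below.

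BAK1 and BAX form the pores in the outer mitochondrial membrane. BAK1 was at 122, 125 and 116 CPM in the control and at 109.9, 108 and 105 CPM in the AURKA-guide libraries. All 3 AURKA-guide values lay below the control values, but the difference did not pass the test over all genes (log2 -0.17, SE 0.051, 95% interval -0.28 to -0.059, edgeR adjusted p = 0.123). BAX was at 54.5, 62.0 and 55.2 CPM and at 52.8, 58.4 and 53.2 CPM. The groups overlapped, with C2 highest (log2 difference -0.06, SE 0.067, edgeR adjusted p = 0.681).

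None of the 7 tested BH3-only members passed. BAD, which binds BCL2 and BCL2L1, was at 53.5, 63.5 and 45.8 CPM in the control and at 50.6, 48.0 and 46.3 CPM in the AURKA-guide libraries. The control values spread more widely than those of the AURKA-guide group, and C3 was the lowest of all 6 (log2 difference -0.17, SE 0.092, edgeR adjusted p = 0.392). BBC3, which encodes the p53 target PUMA, was at 4.81, 5.83 and 4.19 CPM and at 5.74, 5.78 and 4.99 CPM. Its highest value was C2, and the groups overlapped (log2 difference 0.16, SE 0.14, edgeR adjusted p = 0.613). BID, which CASP8 cleaves to link the routes, lay at 62.5 to 65.4 CPM in control and just above at 65.7 to 67.9 CPM in AURKA-guide libraries, with a log2 difference of 0.06 and an edgeR adjusted p of 0.628. PMAIP1 (NOXA, a partner of MCL1) overlapped at 11.9 to 14.6 CPM and BMF at 76.5 to 84.0 CPM. BIK and HRK were low, at 0.711 to 1.24 CPM and 2.28 to 2.83 CPM, and their intervals were wide, at -0.90 to 0.28 and -0.20 to 0.52.

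Of the remaining BCL2 relatives, BCL2L13, a mitochondrial protein linked to mitophagy, was at 64.3, 65.9 and 64.4 CPM in the control and at 61.7, 67.0 and 64.9 CPM in the AURKA-guide libraries. BCL2L12 was at 60.0, 65.1 and 51.7 CPM and at 59.2, 58.1 and 56.4 CPM. Both overlapped, C3 being the lowest and C2 the highest value of BCL2L12, and their log2 differences were -0.0075 (SE 0.056) and -0.03 (SE 0.074).

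Among the caspases, none of the 4 tested initiators passed. CASP2, the initiator of the PIDDosome, was at 65.2, 62.6 and 68.9 CPM in the control and at 72.0, 70.0 and 65.7 CPM in the AURKA-guide libraries. A1 and A2 were above every control library and A3 was not (log2 difference 0.08, SE 0.060, edgeR adjusted p = 0.540). CASP10 was at 46.5, 49.3 and 46.3 CPM and at 45.0, 44.8 and 46.6 CPM. A3 lay among the control values (log2 difference -0.06, SE 0.059, edgeR adjusted p = 0.665). CASP8 overlapped between 65.0 and 73.2 CPM, with an interval of -0.086 to 0.17, and CASP9 between 5.58 and 7.84 CPM, with an interval of -0.25 to 0.36.

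CASP6, the executioner among the members, was at 23.6, 23.4 and 26.7 CPM in the control and at 25.1, 26.4 and 25.4 CPM in the AURKA-guide libraries. C3 was highest, and the groups overlapped (log2 difference 0.06, SE 0.073, edgeR adjusted p = 0.723). CASP1, the inflammatory caspase that processes interleukin-1 beta, was at 4.44, 4.49 and 4.68 CPM and at 5.81, 6.76 and 6.09 CPM. The AURKA-guide values were all above the control values, and this was the largest positive difference of any tested member, 1.37-fold (log2 0.45, SE 0.12, 95% interval 0.19 to 0.71). It did not pass the test (edgeR adjusted p = 0.0824). CASP1 shares sequence with its neighbours CARD16 and CARD17, so its count is uncertain.

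Downstream of the mitochondria, XIAP, the inhibitor of CASP9 and the executioners, was at 25.3, 23.5 and 26.7 CPM in the control and at 29.2, 27.2 and 27.8 CPM in the AURKA-guide libraries. The groups did not overlap by a small margin between C3 and A2 (log2 difference 0.16, SE 0.071, edgeR adjusted p = 0.300). APAF1, the scaffold of the apoptosome, was at 12.003, 10.6 and 11.1 CPM and at 10.8, 12.3 and 11.6 CPM. Those values overlapped (log2 difference 0.04, SE 0.092, edgeR adjusted p = 0.868). CYCS overlapped between 464 and 546 CPM, C3 being the highest, and DIABLO, which releases caspases from XIAP, between 37.1 and 40.7 CPM. CYCS has many processed pseudogenes, and its count is uncertain for that reason.

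A list of 70 further cell death genes gave the surroundings of the members; 63 were found and 54 tested. None rose and 1 fell, PYCARD, beside the 2.03% called over all genes. PYCARD encodes ASC, the adaptor that recruits CASP1 to inflammasomes, and was at 46.2, 49.0 and 41.6 CPM in the control and at 39.5, 35.4 and 36.0 CPM in the AURKA-guide libraries. The groups did not overlap, and the fall was 0.30 on the log2 scale in edgeR (change -0.30, SE 0.073, adjusted p = 0.0483), close to the threshold. It was called without C3 (adjusted p = 0.00125) and was not called without any other single library: the adjusted p was 0.224 without C1, 0.108 without C2, 0.0547 without A1, 0.263 without A2 and 0.269 without A3. BIRC3 and BIRC6, of the inhibitor of apoptosis family, had the next smallest p-values. BIRC3 was at 137, 128 and 158 CPM and at 158, 163 and 177 CPM, with C3 and A1 nearly equal (log2 difference 0.24, SE 0.071, edgeR adjusted p = 0.119). BIRC6 was at 123, 120.5 and 133 CPM and at 142, 131 and 141 CPM, A2 lying below C3 (log2 difference 0.14, SE 0.056, edgeR adjusted p = 0.246). Of the 54 tested genes of that list 27 had a positive and 27 a negative difference. The death ligands Fas ligand and TNF were not analysed here, and TNFSF10 (TRAIL) had at most 0.323 CPM in any library.

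Several of these differences changed with a correction for the GC content of the transcripts or without the library C3. FAS and XIAP have 39.1% and 39.0% GC, and BAK1, FADD, TRADD and BAD 58.8%, 58.6%, 65.0% and 66.3%. BBC3 and BCL2L1, with 69.7% and 56.9% GC, had positive differences of 0.16 and 0.05 that did not pass the test. The relation of GC content to the difference over all members was not tested. With a correction of each library for GC content, FAS differed by 0.24 (edgeR adjusted p = 0.000975) and TNFRSF10A by 0.25 (adjusted p = 0.0273), and these were the 2 members called, beside 6.42% of all genes. BAK1 then stood at -0.10, BAD at -0.04, TRADD at -0.04 and FADD at -0.08, each smaller than without the correction. Without C3, 8 members were called beside 15.3% of all genes: BCL2, CASP1, FAS and TNFRSF10A higher, where 6.81% of all genes were, and BAK1, BAD, FADD and TRADD lower, where 8.5% were. In that fit BAK1 differed by -0.20 (edgeR adjusted p = 0.00768), BAD by -0.28 (adjusted p = 0.0115) and BCL2 by 0.16 (adjusted p = 0.0393). The part of RNA quality or library preparation in these values was not tested.

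**Figure D3:**
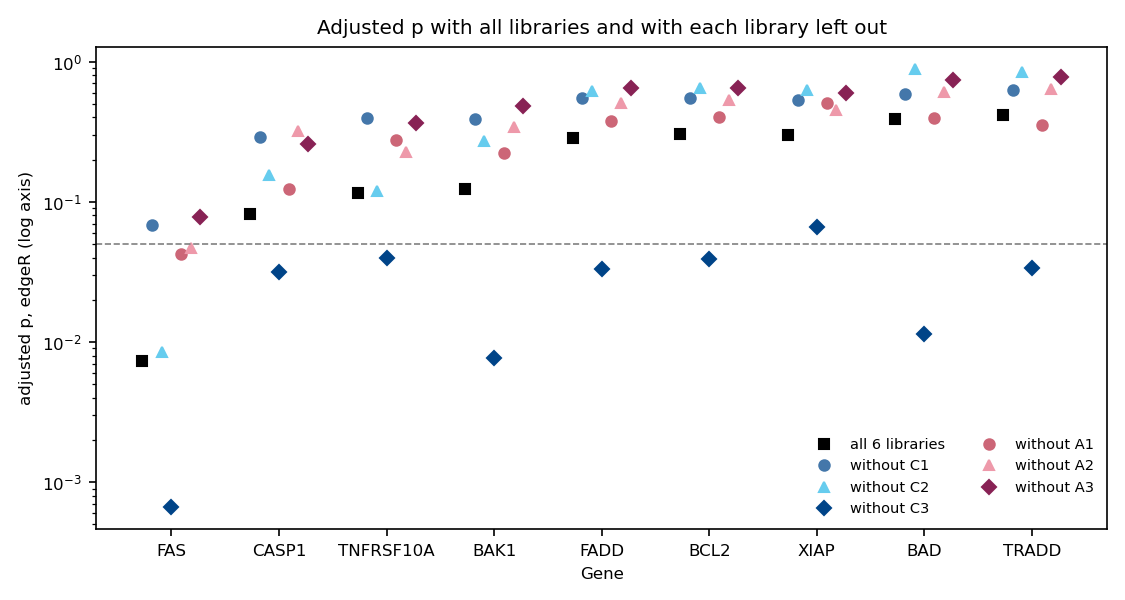
Adjusted p from edgeR (log axis) for the 8 members called without C3 and for XIAP, with all 6 libraries (black squares) and with each library left out in turn; the dashed line is 0.05. The fit without C3 gives the lowest value for every gene shown, which follows in part from choosing the members by that fit. FAS lies above the line without C1 and without A3.

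Alternative splicing is known to give 3 of the members forms with opposing effects on survival, and the segments concerned are shown here because the transcripts with and without them were both counted. They are the stretches (capitals, with 12 flanking bases in lower case) that the longer transcript has and the shorter lacks, read from GENCODE release 29. The FAS segment of 63 bases encodes the membrane-spanning part, and the protein without it is known as a soluble receptor. The BCL2L1 segment of 189 bases is skipped in BCL-xS, a form that promotes death. The MCL1 segment of 248 bases is not a multiple of 3, so that skipping it shifts the frame and gives the shorter, death-promoting MCL1-S.
FAS-204 against FAS-205: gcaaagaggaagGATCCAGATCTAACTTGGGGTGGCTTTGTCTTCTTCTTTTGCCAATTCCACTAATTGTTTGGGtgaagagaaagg
BCL2L1-201 against BCL2L1-202: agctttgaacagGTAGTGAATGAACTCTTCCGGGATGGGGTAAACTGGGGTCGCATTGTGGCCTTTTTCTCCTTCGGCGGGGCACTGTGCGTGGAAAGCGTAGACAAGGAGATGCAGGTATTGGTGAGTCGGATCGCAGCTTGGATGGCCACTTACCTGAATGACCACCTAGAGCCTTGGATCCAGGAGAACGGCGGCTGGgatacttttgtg
MCL1-202 against MCL1-201: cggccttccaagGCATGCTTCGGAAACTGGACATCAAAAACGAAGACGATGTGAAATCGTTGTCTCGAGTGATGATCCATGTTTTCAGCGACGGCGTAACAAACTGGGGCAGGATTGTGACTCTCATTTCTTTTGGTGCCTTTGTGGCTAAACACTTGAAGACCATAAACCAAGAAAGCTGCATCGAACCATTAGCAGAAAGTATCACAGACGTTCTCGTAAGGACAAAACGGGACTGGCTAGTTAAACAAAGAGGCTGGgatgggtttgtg

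Transcript levels were estimated by the authors by dividing reads among near-identical models. The members had 192 transcripts, of which 98 had counts above 0 in all 6 libraries. Of the 128 tested, edgeR called 0, and 3 had an unadjusted p under 0.05, beside 3.85% of all transcripts; the DESeq2 Wald test also called 0. Over all transcripts edgeR called 1 of 43979 (0.00227%) and DESeq2 1.51%. The smallest p-value was that of CFLAR XM_017005193.2, at 14.9, 13.9 and 16.6 transcript CPM in control and at 20.18, 22.0 and 19.8 in AURKA-guide libraries. These values did not overlap (log2 difference 0.45, SE 0.13, edgeR adjusted p = 0.843). BAK1 NM_001188.3, at 119, 119 and 109.9 transcript CPM and at 106, 102 and 102, followed the gene (log2 difference -0.17, edgeR adjusted p = 0.911). FAS XM_011539766.2 was at 13.2, 3.22 and 14.4 and at 19.2, 35.8 and 32.1 transcript CPM. C2 was far below the other libraries for it (log2 difference 1.4998, edgeR adjusted p = 0.99997). The other 2 of the 5 smallest p-values belonged to the only transcripts counted for TNFRSF10A (NM_003844.3) and FADD (NM_003824.3). Their transcript CPM, 16.3, 17.5 and 17.3 against 21.1, 19.4 and 20.32 for TNFRSF10A and 49.5, 51.5 and 46.2 against 45.2, 44.6 and 43.6 for FADD, were close to those of the genes.

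FAS reads were divided mainly between 2 predicted models. XM_011539767.3 held 64.3% ± 10.1 of the FAS count in the controls and 39.7% ± 11.6 with the AURKA guide (SD, n = 3). XM_011539766.2 held 17.7% ± 10.3 and 40.9% ± 12.5 (SD, n = 3). Neither group overlapped the other for these shares, with an exact permutation p of 0.10 (2-sided), the smallest that 3 against 3 libraries can give. It is not adjusted for the number of shares, and edgeR called neither model. Shares of BCL2L1 NM_001191.3, CFLAR XM_017005193.2 and CASP10 XM_005246907.2 gave the same permutation p. Shares within a gene are linked, so the values of these FAS models are not independent. How often shares over all transcripts did not overlap was not analysed. What the 2 FAS models encode was not analysed here. The full-length receptor transcript NM_000043.5 (335 residues) was at 8.58, 7.73 and 0.7003 transcript CPM in control and at 7.46, 11.1 and 11.5 in AURKA-guide libraries. NM_152871.3 (314 residues), which lacks the segment shown above, had counts in C3 alone, at 8.18 transcript CPM, the library in which NM_000043.5 was lowest.

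BCL2L1 reads were spread over 12 models that changed from library to library. NM_001191.3, the BCL-xS transcript (170 residues), was at 14.05, 4.19 and 10.2 transcript CPM in control and at 0, 0 and 4.12 in AURKA-guide libraries. A3 was just below C2, and the log2 difference of -2.79 had an edgeR adjusted p of 0.99997. Models paired with the BCL-xL protein (233 residues) held 48.8% ± 11.5 of the gene's count in the controls and 61.4% ± 13.1 with the AURKA guide (SD, n = 3), with an exact permutation p of 0.20. MCL1 was divided among 3 models. NM_021960.4 (350 residues, with the segment) held 70.6% ± 14.2 and 72.3% ± 7.89, and NM_182763.2 (MCL1-S, 271 residues) 8.42% ± 1.93 and 8.08% ± 1.83 (SD, n = 3). NM_001197320.1 (197 residues) held 20.96% ± 12.98 and 19.65% ± 6.07, and C3 had its highest share at 35.4%.

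**Figure D4:**
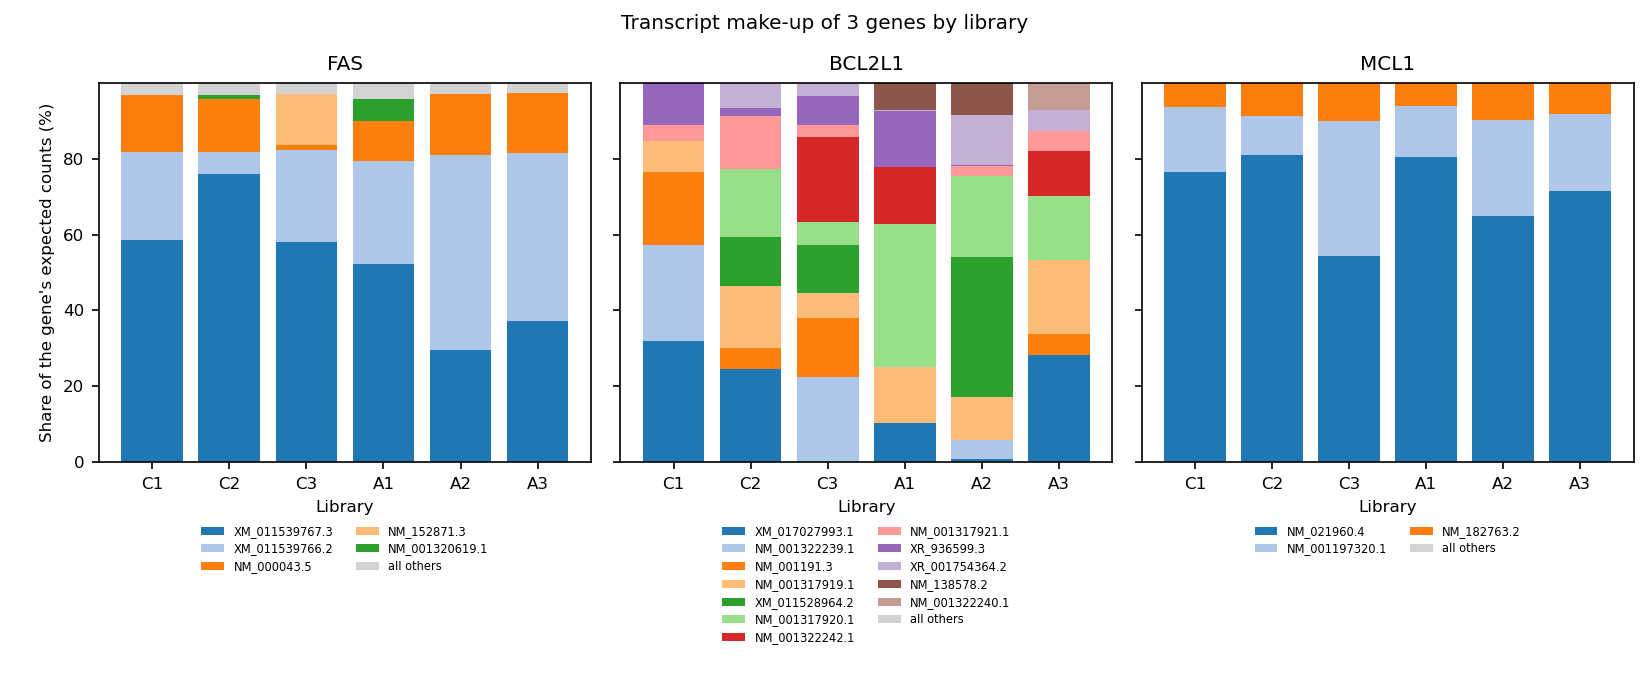
Share of each gene's expected count (%) by transcript model in each library for FAS, BCL2L1 and MCL1; stacked colours are models that reach at least 5% in any library. The make-up of BCL2L1 differs from library to library within both groups, while NM_021960.4 is the largest share of MCL1 in all 6.

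Several other members had a stable main transcript. BAK1 NM_001188.3 held 94.8% ± 1.80 and 95.1% ± 1.46, CASP6 NM_001226.3 97.3% ± 1.13 and 97.1% ± 0.949, and BCL2 NM_000633.2 79.3% ± 2.74 and 80.1% ± 0.924 (SD, n = 3). BAX was divided mainly between NM_004324.3 (218 residues, 48.4% ± 2.22 and 46.1% ± 2.48) and NM_138761.3 (192 residues, 27.7% ± 4.31 and 29.5% ± 1.33). With NM_001291428.1, which is also paired with 192 residues, the models of that protein held 40.0% ± 2.66 and 41.9% ± 1.89 (SD, n = 3). In other members the main transcript was not stable. CASP10 NM_032977.3, the largest by mean share in both groups, held 42.7% ± 15.7 among the controls and 43.5% ± 17.3 with the AURKA guide. The next CASP10 model, NM_001230.4, varied more, at 27.7% ± 32.4 and 31.7% ± 19.4. BBC3 NM_014417.4 held 85.8% ± 24.7 and 70.6% ± 21.5 (SD, n = 3).

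The authors' deposited gene table for the AURKA guide listed 229 genes, beside 17579 genes in the expression table. FAS was the only one of the 37 members in that authors' deposited table, with a log2 fold change of 0.31 and a q-value of 0.00125. It compares the same groups as the fits above, so its FAS value is not independent of them. In the authors' deposited transcript table for the AURKA guide, 3 of 183 transcripts of the members had a q-value under 0.05 (1.64%, against 1.55% of all its transcripts). In the authors' deposited table these were FAS NM_152871.3 (log2 -22.1, q = 2.51e-08), BCL2L1 NM_138578.2 (7.55, q = 0.0417) and BCL2L1 NM_001322240.1 (20.8, q = 1.08e-06). Each rests on few libraries: NM_152871.3 had counts in C3 alone, NM_001322240.1 in A3 alone, and NM_138578.2 was at 5.19 and 6.05 transcript CPM in A1 and A2, 0.0022 in C1, 0.103 in C2 and 0 in C3 and A3. None of these 3 transcripts passed the count filter of the main edgeR fit, which therefore could not call them. The DESeq2 Wald test used here gave no p-value for NM_152871.3 and NM_001322240.1. The authors' deposited transcript table for a guide against NSD2, whose libraries were not analysed here, had 5 of 185 members' transcripts under 0.05 (2.7%, against 1.78%). In that authors' deposited table BCL2L1 NM_138578.2 (log2 9.30, q = 8.57e-09) and NM_001322240.1 (7.76, q = 0.000879) were also under 0.05, in the same direction as for the AURKA guide. FAS NM_152871.3 was not in that authors' deposited table under 0.05 (-0.063, q = 0.99998). In that authors' deposited table CASP8 NM_033356.3 had a log2 fold change of 0.69 (q = 0.0422), and for the AURKA guide 0.26 (q = 0.99999). The NSD2 comparison shares its control libraries with the AURKA comparison, so the 2 sets of values are not independent.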

How the data were processed

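RNA-seq libraries were prepared by the BGISEQ500 protocol, per the labels' protocols. The submitters' processing notes name BWA, Bowtie2, RSEM and hg19. For their versions, roles and strand setting: not given in the sources used here. Deposited by the authors were RSEM expected counts per gene and per transcript (44.8% of gene values were not whole) and FPKM values, both per the file headers, and TPM values, which the authors scaled per length and which were not used here. The authors' deposited tables of comparisons list a log2 fold change and a q-value per feature, and for transcripts also a p-value.

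Expected counts were rounded, then compared between groups by edgeR 4.0.16 under R 4.3.3 (filterByExpr, TMM, quasi-likelihood F test, Benjamini-Hochberg adjustment over all genes, threshold 0.05, no covariate); CPM used TMM-scaled library sizes. Transcripts were tested likewise, a test that does not carry RSEM's uncertainty in dividing reads. Alternatives used DESeq2 1.42.0, limma 3.58.1 on log2(FPKM + 1) or log2(FPKM + 0.1) with at least 0.5 FPKM in 3 libraries or no filter, other scalings and filters, each library left out, the replicate number as a block, and GC content as a natural spline (5 degrees of freedom, 16858 genes with a value from GENCODE release 29). Intervals cover 95%, and counts carry no molecular identifiers.

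Values by library are given for called members and, within each role, the 2 of smallest p with a mean of 5 CPM or more, for the called further genes and the 3 with the smallest p, for the 5 transcripts with the smallest p, and for transcripts with at least 20% of a gene's count in part; other members are described by level. The members and lists were chosen with earlier results of these data known. No coordinates are given, since the annotation used here has another build. Some genes of the lists are not reported here.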

Additional observations from a re-analysis of the deposited data

How the results depend on the processing

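At 17724174 to 18523594 counts per library, the 95% intervals of the low members BIK, HRK, TNFRSF1A and TNFRSF10D extend past 1.25-fold. Some members with more counts do so too, among them BAD and TRADD, with means of 51.3 and 29.7 CPM. The part of depth in these widths was not tested. Further limits are the 3 libraries per group and the library C3.

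Over all genes, 267 calls became 823 with the GC correction, 898 with the replicate block and GC correction, 67 with limma on log2(FPKM + 1) without a filter, and 98 to 2034 when 1 library was left out. The members called were 1, and became 2 with the GC correction, 2 with both, 0 with limma without a filter and 0 to 8 when 1 library was left out. FAS had an adjusted p of 0.0605 with limma without a filter and was called in each other setting except without C1 and without A3. The further cell death genes called were 1, and became 2 with the replicate block (BIRC3 added), 3 with the GC correction, 3 with both, 0 with a mean of at least 10 CPM, with DESeq2 size factors, with limma on log2(FPKM + 0.1) and without its filter, and 0 to 6 when 1 library was left out. Of all transcripts, edgeR called 1, the replicate block 0, the DESeq2 Wald test 746, and edgeR 0 in each fit with 1 library left out. No transcript of a member was called in any of these settings. Transcripts that a fit filtered out or gave no p-value could not be called in it. In the main edgeR fit these included the 3 with a q-value under 0.05 in the authors' deposited table for the AURKA guide.

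Small differences changed sign. With the GC correction alone MCL1 stood at -0.02077, BAX at 0.003731, BCL2L12 at 0.0442, CASP8 at -0.003578, APAF1 at -0.01137 and DIABLO at 0.01518; with the replicate block and the GC correction the same members stood at -0.02045, 0.003482, 0.04526, -0.004983, -0.01233 and 0.01492. Under limma, BCL2L13 stood at 0.007033 and APAF1 at -0.001328 on log2(FPKM + 1), with or without the filter, and at 0.007329 and -0.002884 on log2(FPKM + 0.1). When 1 library was left out, the differences ran from -0.00738 to 0.09069 for BCL2L1, -0.01763 to 0.05127 for MCL1, -0.03533 to 0.02257 for BCL2L13, -0.1145 to 0.05309 for BCL2L12, -0.06226 to 0.1768 for CASP9, -0.007221 to 0.08988 for APAF1, -0.05391 to 0.06397 for CYCS, -0.05744 to 0.05393 for TNFRSF10B, -0.1658 to 0.2486 for TNFRSF1A and -0.01161 to 0.09396 for RIPK1. The cause was not tested. In all, 555 values for single genes kept their direction and side of the threshold, 37 changed sign, 14 gained a call and 12 lost one.

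Deviations of same-numbered libraries correlated at 0.0514, -0.105 and 0.0951, within the range of crossed numbers, -0.206 to 0.166. These values do not show whether libraries were handled in pairs. With the replicate block, 385 genes and 1 member (FAS, adjusted p = 0.00394) were called.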
